A study of Mus musculus with 9 samples.

Results

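Uterine horns of mice that had received conditionally reprogrammed cells (CRCs) after a mechanical injury were compared with uterine horns of sham-operated mice on day 7. The question was which features of the transcriptome still differed from sham at that time. The comparison takes the 3 CRC and the 3 sham libraries, 6 of the 9 libraries of the series, as the sample labels assign them, and the other 3 are labelled injury. All mice were WT C57BL females of 8 weeks with uterus as the tissue. Sham mice had a sham operation. In the CRC group a rotated 27 gauge needle was passed 10 times to damage the inside of the uterus. WT CRCs in a volume of 50 μL followed at once. In injury mice PBS of the same volume followed the same needle passes. CRCs are endometrial epithelial cells that are kept growing in culture together with irradiated mouse 3T3 feeder cells. The CRC and sham groups differ in both the injury and the cells, and the parts of these cannot be told apart in this comparison. RNA of transplanted cells and of the host, both mouse, cannot be told apart either.

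The uterus consists of a lining epithelium with glands, a stroma of fibroblast-like cells, and an outer wall of smooth muscle, the myometrium. Oestrogen and progesterone act on these layers through nuclear receptors and set the epithelium to divide or to differentiate, while the stroma lays down and remodels collagen-rich matrix. Many genes carry an annotated antisense feature, a transcript read from the other strand whose exons overlap those of the gene. Where the strand used in counting is not stated, reads of such a pair cannot be told apart, so a value below is given as the count on a feature. A gene opposite is named beside many of them, and not every overlap is listed.

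Each library gave a count for 55228 named features. These counts came to 325384, 317754 and 327883 in sham replicates 1 to 3 and to 288619, 289964 and 290833 in CRC replicates 1 to 3. They made up 0.817% to 0.898% of the records of these 6 libraries, and between 87.3% and 91.6% of records lay in no feature. A total of 3722 features had enough counts to be tested. CPM below stands for counts per 1e6 counts at library sizes scaled by TMM, where 1 count is worth 3.05 to 3.70 CPM. The edgeR adjusted p comes from the quasi-likelihood test of that tool, adjusted over all features tested by the Benjamini-Hochberg method, and a feature was called at a value under 0.05. Alternatives in scaling, test, filter, threshold and libraries were run for each named feature, and ranges over them include DESeq2's test. Losses of a call at the stricter thresholds are not listed one by one. The labels give 3 libraries in each group, and the study states 3 mice in each. The p-values set a difference between groups against the spread of libraries within groups, which was estimated over all 9 libraries.

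Sham replicates 2 and 3 stood apart from the other libraries in several measures of the reads. Reads ambiguous between features numbered 2571, 28622 and 24851 in sham replicates 1 to 3, against 2005, 1751 and 4269 in CRC. Reads that did not align made up 1.61, 3.13 and 2.52% of records in sham and 1.54, 1.36 and 1.49% in CRC. The feature CT010467.1, annotated as ribosomal RNA on chromosome 17, took 1.54, 10.9 and 12.4% of the feature counts in sham and 1.77, 0.807 and 2.01% in CRC. Reads of low alignment quality made up 3.11, 4.75 and 3.90% of records in sham and 3.39, 3.17 and 3.21% in CRC, and reads in no feature 90.7, 87.3 and 89.0% and 91.3, 91.6 and 91.4%. All of these measures set the same pair of sham libraries apart, while sham replicate 1 lay within or near the range of the CRC libraries. Reads without a unique alignment did not follow this. They made up 3.74, 3.86 and 3.65% of records in sham and 2.95, 3.09 and 3.10% in CRC, with every sham library higher. Over the log2 CPM of all features tested, the Euclidean distance was 58.2 between sham replicates 1 and 2, 44.8 between 1 and 3 and 53.5 between 2 and 3, while the 3 CRC libraries lay 35.1 to 35.8 apart. By this measure sham replicate 3 lay nearer to sham replicate 1 than to sham replicate 2, and sham replicate 1 lay nearer to injury replicates 1 to 3 (40.2, 43.4 and 40.1) than to either other sham library. It also lay nearer to CRC replicates 1 to 3 (56.1, 55.0 and 55.8) than to sham replicate 2. Sham replicates 2 and 3 each lay farther from every CRC library than from any sham library. TMM factors were 0.948, 0.850 and 0.853 in sham and 1.14, 1.12 and 1.13 in CRC. The part of these library differences in the results was not tested beyond refits that leave out libraries or the features with the most counts. Without the 3 features with the most counts, CT010467.1 among them, 753 features were called, 309 higher and 444 lower. Of the 746 calls made with all features, 740 were also made there. Values of refits without sham replicates 2 and 3 are given below where a result rests on them. In these refits the spread of the lone sham library is assumed to be like that of the other groups, and a call lost with fewer libraries does not by itself show a smaller change.

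Whether the counting, done with HTSeq by the names of the files, used strand is not given in the sources used here. Counts of a pair could lie almost wholly on 1 feature. Gm48529 held 130075 counts over the 9 libraries, and Tagln, which it overlaps by 1241 bases, held 159. Reads ambiguous between features made up 0.00493% to 0.0773% of records. The strand setting behind these values was not tested. Features with an exon opposite an exon of another gene held 80.6, 81.6 and 82.3% of the feature counts in sham and 74.3, 75.2 and 75.1% in CRC, with no overlap between the groups. Without CT010467.1 these shares were 80.3, 79.3 and 79.8% in sham and 73.9, 75.0 and 74.6% in CRC, again with every sham library above every CRC library. Several genes used in every cell were close to 0 on their own features, while Tbp, a general transcription factor, had 362, 204 and 278 counts in sham and 248, 285 and 296 in CRC. Actb, the cytoskeletal actin, had 0, 0 and 4 counts in sham and 1, 1 and 0 in CRC, and Hprt, Sdha and Rpl13a had 0 in all 6 libraries. Of the 15 genes of that list 2 were tested on their own features, Tbp and Gapdh, and neither was called, against 20.04% of all features tested (log2 fold changes -0.21 and 0.74, edgeR adjusted p = 0.412 and 0.482). The feature opposite Tbp was not called either. All 15 features of the mitochondrial genome were at 0.

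The uterine markers gave little signal on their own features. Of the 22 epithelial genes, Cdh1, Krt19, Foxa2, Ehf and 5 others had 0 counts in the 6 libraries, Epcam had 8 and Krt8 had 1. Summed over the list the own features held 33, 22 and 26 counts in sham and 35, 38 and 23 in CRC, and Sox17, a transcription factor of the glands, was the most abundant with 106 counts. Counts of the smooth muscle list lay mainly on 1 feature opposite a gene of it. Its 17 genes held 275, 301 and 276 counts in sham and 351, 383 and 361 in CRC on their own features, whereas the features opposite them held 22713, 18830 and 19286 in sham and 10416, 9871 and 9748 in CRC. Of the latter, Gm48529, opposite Tagln, alone held 21571, 17779 and 18231 in sham and 9380, 8879 and 8811 in CRC. Actg2 was at 0 and Acta2 had 30 counts in all. On their own features the epithelial markers were thus at or near 0 and the muscle markers low, and the tissue label could be checked only through few features, among them those opposite Tagln and the stromal gene Hoxa11 and the feature of Pgr, the progesterone receptor.

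On day 7 the CRC libraries held lower counts than sham on 4 of 5 features opposite genes of cell division and on 4 of 5 opposite genes of cholesterol synthesis (median log2 fold changes -2.27 and -2.08). They were also lower on 6 of 9 collagen genes (median -2.64), which became 2 genes and -1.55 without sham replicates 2 and 3, and on the antisense feature of the muscle gene Tagln (log2 fold change -1.28, SE 0.10, 3 libraries a group). Counts were higher on 3 of 7 features opposite Hox genes (median 0.88), or 1 without sham replicates 2 and 3, and on the genes Tnfsf18 and Sorbs2 (log2 fold changes 2.50 and 2.41). Of the 3722 features tested, 746 were called between CRC and sham (20.04%), 299 higher in CRC (8.03%) and 447 lower (12.01%). The 3 CRC libraries did not overlap the 3 sham libraries in 35.5% of the features tested, and 712 of those called had no overlap. Changes of at least 2-fold were called in 217 features higher and 292 lower, and of at least 4-fold in 60 and 90. The lower calls lay mainly on features opposite another gene. Of 2182 such features 158 were called higher and 348 lower, with a median log2 fold change of -0.07 over all of them that was 0.22 with library sizes of all records. Of 1458 features with no exon opposite, 135 were called higher and 90 lower, with a median of 0.21 that was -0.01 with TMM factors from these features alone. That scaling centres these same features by construction, so the -0.01 does not show whether they changed. Non-coding features opposite a protein-coding gene had 37 higher and 144 lower of 723, with a median of -0.20. The balance also varied with abundance. Features with a mean of 200 counts or more had 22 higher and 96 lower of 223, with a median of -0.33, against 82 and 86 of 1569 under 20 counts, with a median of 0.10. Class and abundance were not tested apart. The median over all features tested was 0.03. The number higher fell when any 1 CRC library was left out, and was 187, 182 and 201 without CRC replicates 1 to 3. Without sham replicates 2 and 3 it was 189, beside 366 lower, and 409 of the 746 calls were kept.

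The balance of higher and lower calls depended on the scaling of the libraries. With library sizes set to all records, reads outside features included, 643 features were higher and 281 lower, and the median of all features moved by 0.29 on the log2 scale. With TMM factors from features with no exon opposite, 175 were higher and 655 lower, and the median moved by -0.22. A log2 fold change below should be read against these shifts, and no called feature named by the rule for largest changes or from a gene list changed sign under them. Between injury and sham 16 features were called (0.4299%), 10 higher and 6 lower. Without any 1 of sham replicates 1 to 3 this count was 154, 14 and 3, and without injury replicates 1 to 3 it was 8, 3 and 4. It was 10 without CRC replicate 3, since all 9 libraries share the fit. Injury values are given beside some of the results, and both comparisons share the 3 sham libraries.

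**Figure D1:**
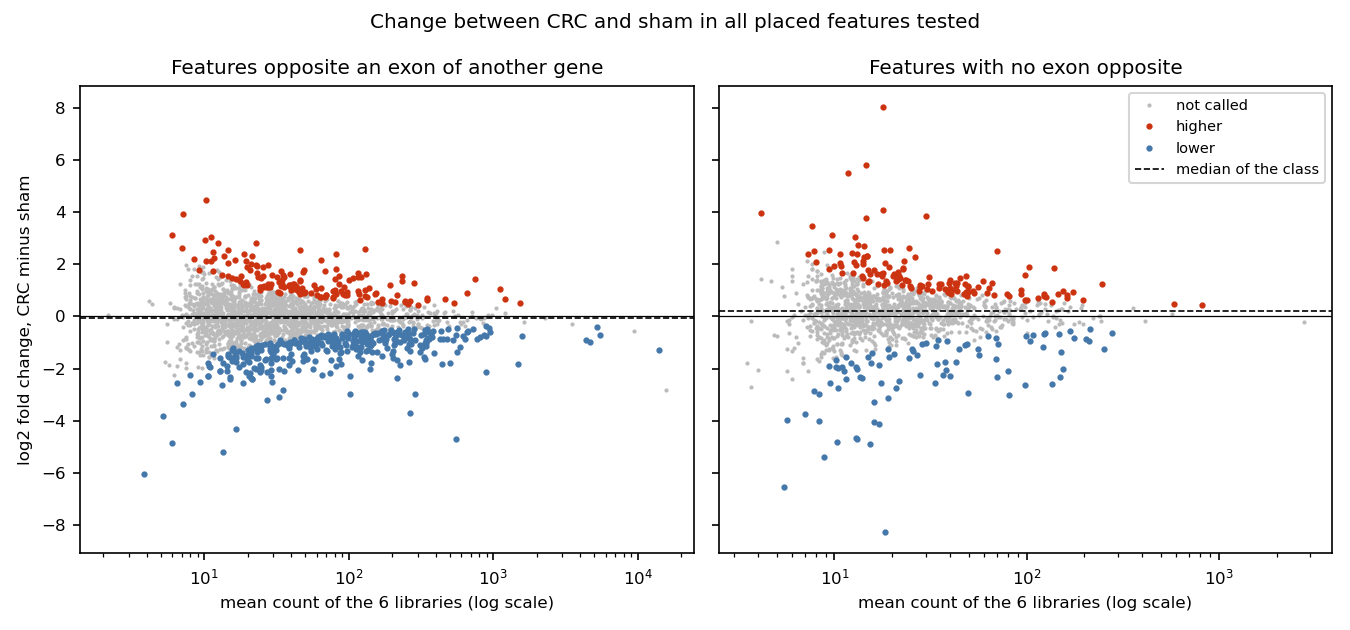
Log2 fold change between CRC and sham (y axis) against the mean count of the 6 libraries (x axis, log scale) for features with an exon opposite another gene (left) and without one (right), each point 1 feature and the dashed line the median of the class. Called features are coloured, and on the left 348 lower calls stand against 158 higher calls.

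The largest decrease among the features that met the rule for naming was that of Gm13032 (chromosome 4, 140810993 to 140817511 of GRCm38), a non-coding feature opposite the tail of Padi1. Padi1 encodes an enzyme that converts arginine in proteins to citrulline. Gm13032 measured 2815, 4579 and 3848 CPM in sham replicates 1 to 3 and 235, 114 and 82.4 CPM in CRC replicates 1 to 3 (log2 fold change -4.70, SE 0.40, edgeR adjusted p = 2.32e-05). Every sham library lay far above every CRC library, and so did the injury libraries, at 3140.3, 1705 and 2779 CPM. Padi1 itself had 1 count in all 9 libraries. Padi2, a neighbour of Padi1 with the same enzyme activity, measured 38.9, 33.3 and 64.4 CPM in sham replicates 1 to 3 and 12.2, 12.3 and 3.05 CPM in CRC replicates 1 to 3 on its own feature (log2 fold change -2.26, SE 0.68, edgeR adjusted p = 0.0168). Its levels were low in all 6 libraries, and the call was lost without sham replicate 3, CRC replicate 3 or sham replicates 2 and 3 together (edgeR adjusted p = 0.0928, 0.0779 and 0.113, and 0.00705 to 0.113 over its 21 alternatives, log2 fold change -2.09 without both sham libraries), and with no filter beyond 1 count. On the other strand it overlaps Gm13031, with 8 counts in the 9 libraries.

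Padi1 and Padi2 stood in the list of steroid receptors and their targets, of which 5 own features and 4 opposite features were tested. On the own features 1 was higher, 1 lower and 3 not called, with a median log2 fold change of 0.05 that was -0.17 with TMM factors from features with no exon opposite. On the opposite features 1 was higher and 3 lower, against 20.04% of all features tested called in either direction (median -1.14, against 0.03 over all features tested). Gm48140, opposite the oestrogen-induced gene Greb1, measured 285, 267 and 333 CPM in sham replicates 1 to 3 and 140.1, 123 and 156 CPM in CRC replicates 1 to 3 (log2 fold change -1.08, SE 0.24, edgeR adjusted p = 0.00141). The groups were clearly separated, with the highest CRC library below the lowest sham library, and Greb1 itself had 0 counts in the 9 libraries. LTO1, which ends over the end of Ccnd1, the cyclin of early G1 phase, measured 1449.8, 1492 and 1552 CPM in sham replicates 1 to 3 and 579, 701 and 683 CPM in CRC replicates 1 to 3 (log2 fold change -1.19, SE 0.15, edgeR adjusted p = 7.58e-07). Ccnd1 on its own feature did not follow it, with a log2 fold change of 0.05 (edgeR adjusted p = 0.9). With TMM factors from features with no exon opposite it was -0.17, without sham replicates 2 and 3 -0.32 and with library sizes of all records 0.34.

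In the other direction, Lifr, the receptor chain for the implantation cytokine LIF, measured 94.1, 74.0 and 53.6 CPM in sham replicates 1 to 3 and 228, 175 and 223 CPM in CRC replicates 1 to 3 on its own feature (log2 fold change 1.49, SE 0.30, edgeR adjusted p = 0.000483). All 3 CRC libraries exceeded all sham libraries, and the injury libraries lay between, at 128, 151 and 119 CPM. Sulf2, opposite the steroid receptor coactivator Ncoa3, was also called higher (log2 fold change 1.78, edgeR adjusted p = 0.0425), but its mean was only 44.8 CPM in CRC and the call was lost without sham replicate 3, CRC replicate 1, 2 or 3, injury replicate 1, 2 or 3 or sham replicates 2 and 3 together (edgeR adjusted p = 0.134, 0.0905, 0.0909, 0.117, 0.0508, 0.0575, 0.055 and 0.308, and 0.0149 to 0.308 over its 22 alternatives, log2 fold change 1.39 without both sham libraries), and with TMM factors from features with no exon opposite, DESeq2's Wald test, no filter beyond 1 count, the CRC and sham libraries alone, a replicate block and counts thinned to the smallest total. Pgr, the progesterone receptor, measured 217, 248 and 322 CPM in sham replicates 1 to 3 and 274, 237 and 232 CPM in CRC replicates 1 to 3 and was not called (log2 fold change -0.08, edgeR adjusted p = 0.848). Its groups overlapped, and its log2 fold change was 0.21 with library sizes of all records and 0.13 without sham replicates 2 and 3. Esr1, the main oestrogen receptor of the uterus, had 1, 0 and 7 counts in sham and 5, 1 and 3 in CRC and was not tested.

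Genes of cholesterol synthesis, and the features opposite them, were called in different directions. Of 5 own features tested 2 were called higher and 0 lower (median log2 fold change 1.08), while of 5 opposite features 4 were called lower and none higher (median -2.08). Of all features tested 8.03% were called higher and 12.01% lower. The directions of the list were the same under each of the 4 other scalings, and without sham replicates 2 and 3 the numbers were 0 higher on own features and 4 lower on opposite features. Gm48342, opposite Hmgcs1, the enzyme that makes HMG-CoA for this pathway, measured 1751, 1909.9 and 1641 CPM in sham replicates 1 to 3 and 201, 246 and 226 CPM in CRC replicates 1 to 3 (log2 fold change -2.98, SE 0.17, edgeR adjusted p = 1.42e-13). It had the smallest adjusted p of the features named here. Both groups were tight and far apart, and the injury libraries lay between them at 940.3, 1044 and 849 CPM (log2 fold change of injury against sham -0.90, edgeR adjusted p = 0.00238).

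Ctsb, a lysosomal protease gene whose end overlaps that of Fdft1, the squalene synthase gene, measured 230.3, 163 and 189.5 CPM in sham replicates 1 to 3 and 42.6, 61.5 and 33.6 CPM in CRC replicates 1 to 3 (log2 fold change -2.08, SE 0.34, edgeR adjusted p = 3.48e-05). Fdft1 itself was not called (log2 fold change 0.06, edgeR adjusted p = 0.895). Akap9 and Cyp51, features opposite each other, were both called. Akap9, which encodes a scaffold protein of the Golgi and centrosome, measured 185, 174 and 175 CPM in sham replicates 1 to 3 and 54.8, 70.7 and 48.8 CPM in CRC replicates 1 to 3 (log2 fold change -1.61, SE 0.33, edgeR adjusted p = 0.000525). Cyp51, the lanosterol demethylase opposite its end, measured 101, 85.1 and 78.7 CPM in sham replicates 1 to 3 and 213, 175 and 174 CPM in CRC replicates 1 to 3 (log2 fold change 1.08, SE 0.30, edgeR adjusted p = 0.00934). Neither of the pair overlapped between groups, and their changes had opposite signs. The call of Cyp51 was lost without CRC replicate 1 or sham replicates 2 and 3 together (edgeR adjusted p = 0.0554 and 0.168, and 0.00133 to 0.168 over its 23 alternatives, log2 fold change 0.84 without both sham libraries).

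Most of the features tested opposite genes of cell division were called lower. Of 5 tested 4 were called lower, against 12.01% of all features tested, and none higher (median log2 fold change -2.27), and without sham replicates 2 and 3 all 5 were. LTO1, opposite Ccnd1, is among those called lower with all libraries. It is counted again in the list of steroid receptors and targets and among the genes the study measured or names, so these results are not separate. None of the 4 own features was called (median -0.31), and whether own and opposite features differ was not tested. Exosc9, an RNA exosome gene that ends over Ccna2, the cyclin of S phase, measured 97.3, 274 and 150.2 CPM in sham replicates 1 to 3 and 15.2, 33.8 and 6.10 CPM in CRC replicates 1 to 3 (log2 fold change -3.21, SE 0.47, edgeR adjusted p = 7.86e-06), and without sham replicates 2 and 3 its log2 fold change was -2.44. Rccd1, which encodes an RCC1-domain protein and overlaps Prc1, a microtubule bundler of the dividing cell, measured 782, 440.5 and 640.1 CPM in sham replicates 1 to 3 and 54.8, 104 and 76.3 CPM in CRC replicates 1 to 3 (log2 fold change -2.98, SE 0.25, edgeR adjusted p = 3.93e-10). Cdc23, a subunit gene of the anaphase-promoting complex that ends over Kif20a, a kinesin of cytokinesis, measured 662, 544 and 504 CPM in sham replicates 1 to 3 and 152, 86.0 and 116 CPM in CRC replicates 1 to 3 (log2 fold change -2.27, SE 0.22, edgeR adjusted p = 5.86e-09). In all 3 the highest CRC library was below the lowest sham library, and the injury libraries lay within or above the sham range in Rccd1 (1076, 770.1 and 997 CPM) and Cdc23 (777, 978 and 1084 CPM). Kif20a, Prc1 and Ccna2 on their own features had log2 fold changes of -0.25, -0.37 and -0.51 and were not called. Mki67, the proliferation marker, had 2, 4 and 5 counts in sham and 9, 3 and 15 in CRC and was not tested.

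The feature with the most counts over the 9 libraries, Gm48529 (chromosome 9, 45930112 to 45933738), lies within Tagln on the other strand. Tagln encodes transgelin, an actin-binding protein of smooth muscle. Gm48529 measured 69964, 65808 and 65190.1 CPM in sham replicates 1 to 3 and 28568, 27284 and 26874 CPM in CRC replicates 1 to 3 (log2 fold change -1.28, SE 0.10, edgeR adjusted p = 1.76e-10). Every CRC library was far below every sham library, and the injury libraries, at 53541, 52385 and 52970.1 CPM, lay between. Tagln on its own feature did not pass the threshold (log2 fold change -1.13, edgeR adjusted p = 0.0528). Gm11946, opposite Smtn, the gene of the contractile protein smoothelin, measured 1430.3, 1484 and 1719.95 CPM in sham replicates 1 to 3 and 877, 774 and 872 CPM in CRC replicates 1 to 3 (log2 fold change -0.88, SE 0.16, edgeR adjusted p = 0.000207). Pcsk7, a protease gene that ends over Tagln, was lower as well (log2 fold change -1.32, edgeR adjusted p = 0.0179), a call that was lost without sham replicate 3, CRC replicate 2 or 3 or sham replicates 2 and 3 together (edgeR adjusted p = 0.0546, 0.11, 0.0598 and 0.224, and 0.00488 to 0.224 over its 22 alternatives, log2 fold change -1.07 without both sham libraries), and with DESeq2's Wald test, no filter beyond 1 count and library sizes of all records (log2 fold change -1.02). It also overlaps Rnf214.

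Over the smooth muscle list 3 of 6 opposite features were called lower and none higher (median log2 fold change -0.68). On the own features 1 of 6 was lower and 1 higher (median -0.48), a share that stands against 20.04% of all features tested. In the refit without sham replicates 2 and 3, 2 opposite features were lower. Myh11, the smooth muscle myosin heavy chain, measured 221, 299.8 and 279 CPM in sham replicates 1 to 3 and 101, 61.5 and 174 CPM in CRC replicates 1 to 3 (log2 fold change -1.24, SE 0.30, edgeR adjusted p = 0.00299). Its CRC and sham groups did not overlap, and the injury libraries, at 146, 158 and 123 CPM, lay within the CRC range. Kcnmb1, the regulatory subunit of the calcium-activated potassium channel of smooth muscle, went the other way and measured 201, 148 and 111 CPM in sham replicates 1 to 3 and 442, 519 and 427 CPM in CRC replicates 1 to 3 (log2 fold change 1.58, SE 0.24, edgeR adjusted p = 1.2e-05). Every CRC library was above the level of every sham library. In bulk tissue, a change in cell numbers and a change in RNA per cell cannot be told apart.

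Genes of adhesion to the matrix and of the actin cytoskeleton anchor the cell to collagen and carry its tension. Of 8 opposite features 4 were called lower (median log2 fold change -0.89) and of 4 own features 2 (median -0.96), with none called higher on either, against 12.01% of all features tested called lower. With library sizes of all records 1 opposite feature was called higher, and without sham replicates 2 and 3 the numbers lower were 4 opposite and 0 own. The largest counts lay on Taf10 and Ap3m1. Taf10, a subunit gene of the general factor TFIID, ends over the end of Ilk, the integrin-linked kinase gene, and measured 23265, 17889 and 20307 CPM in sham replicates 1 to 3 and 9527, 11508 and 10089 CPM in CRC replicates 1 to 3 (log2 fold change -0.98, SE 0.12, edgeR adjusted p = 4.07e-07). Ap3m1, an adaptor subunit gene that ends over Vcl, the vinculin gene, measured 21977, 16989.5 and 18272 CPM in sham replicates 1 to 3 and 9283, 11241 and 9708 CPM in CRC replicates 1 to 3 (log2 fold change -0.92, SE 0.12, edgeR adjusted p = 1.39e-06). In both, all CRC libraries were below all sham libraries, and the injury libraries stood near the lowest sham value, at 16839.5, 16878 and 16990.02 CPM for Taf10. Ilk and Vcl on their own features were not called (edgeR adjusted p = 0.105 and 0.748).

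Actn1, which encodes the actin crosslinker alpha-actinin, and a feature opposite it were both lower. Actn1 measured 81.1, 122 and 114 CPM in sham replicates 1 to 3 and 36.5, 39.9 and 33.6 CPM in CRC replicates 1 to 3 (log2 fold change -1.51, SE 0.41, edgeR adjusted p = 0.00796), and Gm47766, opposite its start, measured 2640.1, 1295 and 1749 CPM in sham replicates 1 to 3 and 1246, 867 and 1013 CPM in CRC replicates 1 to 3 (log2 fold change -0.86, SE 0.19, edgeR adjusted p = 0.0015). Capn12, opposite the end of the related gene Actn4, had a log2 fold change of -1.08 (edgeR adjusted p = 0.000987). Cald1, the caldesmon gene, measured 341, 611 and 418 CPM in sham replicates 1 to 3 and 177, 194 and 348 CPM in CRC replicates 1 to 3 (log2 fold change -0.93, SE 0.24, edgeR adjusted p = 0.00597). Its groups overlapped through CRC replicate 3, and the call was lost without CRC replicate 1 or 2 or sham replicates 2 and 3 together (edgeR adjusted p = 0.0587, 0.0594 and 0.189, and 0.000374 to 0.189 over its 23 alternatives, log2 fold change -0.56 without both sham libraries), and with library sizes of all records (log2 fold change -0.62). The call of Actn1 was lost without sham replicates 2 and 3 together (edgeR adjusted p = 0.174, and 0.00186 to 0.174 over its 23 alternatives, log2 fold change -1.19 without both sham libraries), and that of Capn12 without sham replicates 2 and 3 together (edgeR adjusted p = 0.0934, and 3.08e-05 to 0.0934 over its 23 alternatives, log2 fold change -0.69 without both sham libraries).

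Collagen genes, the fibrous and microfibrillar part of the matrix, had lower calls on some of their own features. Of 9 tested 6 were called lower and none higher, against 12.01% of all features tested called lower, with a median log2 fold change of -2.64 against 0.03 over all features tested. Of 4 opposite features 2 were lower (median -1.10). Summed over the 28 genes, own features held 233, 532 and 348 counts in sham and 93, 77 and 125 in CRC. All CRC libraries were below all sham libraries, but the sham libraries differed among themselves, with sham replicate 2 highest.

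In each sham library the chains of collagen VI held most of these counts. Col6a2 (chromosome 10, 76595762 to 76623630), which has no exon opposite, measured 305, 892 and 583 CPM in sham replicates 1 to 3 and 79.2, 73.7 and 131 CPM in CRC replicates 1 to 3 (log2 fold change -2.64, SE 0.31, edgeR adjusted p = 4.54e-07). Col6a1, its neighbour on the chromosome, measured 42.2, 196 and 125 CPM in sham replicates 1 to 3 and 12.2, 9.22 and 18.3 CPM in CRC replicates 1 to 3 (log2 fold change -3.14, SE 0.52, edgeR adjusted p = 4.26e-05), and Col6a3 measured 55.1, 181 and 107 CPM in sham replicates 1 to 3 and 6.09, 3.07 and 9.15 CPM in CRC replicates 1 to 3 (log2 fold change -4.13, SE 0.61, edgeR adjusted p = 9.41e-06). Each of the 3 chains was lower in every CRC library than in any sham library and highest in sham replicate 2. Col5a1, Col1a1 and Col3a1 had log2 fold changes of -3.83, -2.74 and -1.93 at low counts, Col1a1 with 10, 16 and 28 in sham and 3, 2 and 4 in CRC. In the refit without sham replicates 2 and 3 these became -1.55, -1.83 and -1.22, and that of Col6a1 became -1.70. Col5a1 overlaps Gm13372 and 2810430I11Rik on the other strand. Without sham replicates 2 and 3, Col6a2 and Col6a3 were still called, at log2 fold changes of -1.74 and -3.15, while Col6a1, Col5a1, Col1a1 and Col3a1 were not (edgeR adjusted p = 0.125, 0.688, 0.306 and 0.458, the highest of their alternatives, against lowest values of 1.14e-07, 0.00135, 0.000669 and 0.00886). The list then had 2 features called lower and a median of -1.55. With 1 library left out, Col1a1 was not called without sham replicate 3, Col5a1 without CRC replicate 2, and Col3a1 without sham replicate 2, CRC replicate 2 or CRC replicate 3 (edgeR adjusted p = 0.0561, 0.0548, 0.125, 0.077 and 0.0731). Col3a1 was also not called with DESeq2's Wald test or with no filter beyond 1 count.

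Opposite the start of Col6a4, a further chain gene, Gm36993 measured 519, 581 and 547 CPM in sham replicates 1 to 3 and 280.2, 239.7 and 305 CPM in CRC replicates 1 to 3 (log2 fold change -0.996, SE 0.18, edgeR adjusted p = 0.000155). The groups were tight and had no overlap, and the injury libraries lay above the sham range at 618, 622 and 691 CPM. Gm47575, inside the same gene, was lower too (log2 fold change -1.19, edgeR adjusted p = 0.00547), a call that was lost without CRC replicate 3 (edgeR adjusted p = 0.0598, and 0.00086 to 0.0598 over its 23 alternatives). Of the wider matrix list, 1 of 5 own features was higher (median 0.39) and 1 of 6 opposite features was lower (median -0.49). This does not set the list apart from all features tested, of which 20.04% were called. Without sham replicates 2 and 3 the medians were 0.34 and -0.08. With TMM factors from features with no exon opposite, 0 own features were higher and 3 opposite features lower. With library sizes of all records the numbers were 2 and 1. Timp3, an inhibitor of matrix metalloproteases, measured 114, 29.6 and 53.6 CPM in sham replicates 1 to 3 and 189, 104 and 153 CPM in CRC replicates 1 to 3 (log2 fold change 1.15, SE 0.37, edgeR adjusted p = 0.0268). Sham replicate 1 overlapped the CRC range, and the call was lost without sham replicate 2 or 3, CRC replicate 1 or 3 or sham replicates 2 and 3 together (edgeR adjusted p = 0.115, 0.102, 0.144, 0.0827 and 0.683, and 0.000933 to 0.683 over its 22 alternatives, log2 fold change 0.33 without both sham libraries), and with TMM factors from features with no exon opposite, DESeq2's Wald test and the CRC and sham libraries alone. Syn3, which spans Timp3 on the other strand, was not called (log2 fold change -0.30, edgeR adjusted p = 0.0691). Gm9913, opposite the fibrillin gene Fbn1, measured 240.01, 270.2 and 265 CPM in sham replicates 1 to 3 and 125, 138 and 104 CPM in CRC replicates 1 to 3 (log2 fold change -1.08, SE 0.24, edgeR adjusted p = 0.00172).

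Among the Hox genes, transcription factors that pattern the reproductive tract, the calls lay on opposite features. Of 7 tested 3 were higher and none lower (median log2 fold change 0.88), against 8.03% of all features tested called higher, and 1 was without sham replicates 2 and 3. None of 6 own features was called (median 0.13, and -0.10 with TMM factors from features with no exon opposite). Whether own and opposite features differ was not tested. Hoxaas2, opposite Hoxa3, measured 97.3, 66.6 and 132 CPM in sham replicates 1 to 3 and 311, 415 and 281 CPM in CRC replicates 1 to 3 (log2 fold change 1.76, SE 0.28, edgeR adjusted p = 2.32e-05). Hoxd3os1, opposite the start of Hoxd3 and Hoxd4, measured 386, 341 and 289.6 CPM in sham replicates 1 to 3 and 603, 673 and 647 CPM in CRC replicates 1 to 3 (log2 fold change 0.92, SE 0.21, edgeR adjusted p = 0.00149). Both had every CRC library above every sham library, and so had 5730596B20Rik, also opposite Hoxa3 (log2 fold change 0.88, edgeR adjusted p = 0.00715). The call of Hoxd3os1 was lost without sham replicates 2 and 3 together (edgeR adjusted p = 0.0585, and 0.000107 to 0.0585 over its 23 alternatives, log2 fold change 0.68 without both sham libraries), and that of 5730596B20Rik without CRC replicate 2 or 3 or sham replicates 2 and 3 together (edgeR adjusted p = 0.057, 0.0663 and 0.144, and 0.000643 to 0.144 over its 23 alternatives, log2 fold change 0.61 without both sham libraries), while Hoxaas2 was called in every alternative. Hoxa11os, opposite the stromal gene Hoxa11, held the most counts of the list and was not called (log2 fold change -0.05, edgeR adjusted p = 0.869).

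Markers of single layers and cell types were few among the features tested. In the epithelial list, Gm37587, opposite the start of Sox17, measured 71.4, 85.1 and 85.8 CPM in sham replicates 1 to 3 and 253, 184 and 201 CPM in CRC replicates 1 to 3 (log2 fold change 1.40, SE 0.30, edgeR adjusted p = 0.000967). Its groups were well separated, while Sox17 itself was not called (log2 fold change 0.58, edgeR adjusted p = 0.371). Gm26642, opposite Elf3, an epithelial transcription factor gene, was lower (log2 fold change -0.95, edgeR adjusted p = 0.0133), and that call was lost without sham replicate 2, CRC replicate 3 or sham replicates 2 and 3 together (edgeR adjusted p = 0.0644, 0.0872 and 0.178, and 0.00207 to 0.178 over its 23 alternatives, log2 fold change -0.73 without both sham libraries), and with library sizes of all records (log2 fold change -0.65). It also overlaps Rnpep. Of the 3 opposite features 1 was thus higher, 1 lower and 1 not called, the last opposite Pax8, against 20.04% called of all features tested, with a median log2 fold change of -0.35 that was -0.05 with library sizes of all records and 0.12 without sham replicates 2 and 3.

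In the stromal list 1 of 2 own features was higher and 1 of 6 opposite features lower, against 20.04% called of all features tested. Without sham replicates 2 and 3 the numbers were 0 and 1. The median log2 fold change was 0.34 on own features, and -0.25 on opposite features, where it was 0.04 with library sizes of all records. Nr2f2, a nuclear receptor of the stroma, measured 123, 155 and 143 CPM in sham replicates 1 to 3 and 228, 279.6 and 238 CPM in CRC replicates 1 to 3 (log2 fold change 0.82, SE 0.25, edgeR adjusted p = 0.0189), a call that was lost without sham replicate 1 or 3, CRC replicate 2 or 3 or sham replicates 2 and 3 together (edgeR adjusted p = 0.0583, 0.0563, 0.0939, 0.0529 and 0.0628, and 0.00178 to 0.0939 over its 23 alternatives, log2 fold change 0.95 without both sham libraries), and with TMM factors from features with no exon opposite, DESeq2's Wald test and no filter beyond 1 count. The feature opposite its start, B130024G19Rik, was not called (log2 fold change 0.40, edgeR adjusted p = 0.144). Gm16897, opposite the end of Cd34, a surface protein gene of stem and endothelial cells, measured 311, 355 and 358 CPM in sham replicates 1 to 3 and 195, 154 and 168 CPM in CRC replicates 1 to 3 (log2 fold change -0.99, SE 0.23, edgeR adjusted p = 0.00189). It overlaps Cd34 by 148 bases and A330023F24Rik by 426. A330023F24Rik was not called (log2 fold change 0.63, edgeR adjusted p = 0.168). Neither Nr2f2 nor Gm16897 overlapped between the groups, and their signs differed. The summed counts of the stromal list were 1511, 1747 and 1517 on opposite features in sham and 1732, 1629 and 1672 in CRC, where Hoxa11os was the most abundant.

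Leukocyte markers held few counts on their own features, as did several genes used in every cell, so these counts do not show whether leukocytes were present. Of 24 genes 15 had 0 counts in the 6 libraries, among them Ptprc, Cd68, Adgre1 and Lyz2, and the list held 74, 81 and 81 counts in sham and 59, 42 and 47 in CRC. Csf1r, the receptor for macrophage colony-stimulating factor, supplied most of these and was the one tested. It measured 214, 233 and 282 CPM in sham replicates 1 to 3 and 137, 111 and 107 CPM in CRC replicates 1 to 3 (log2 fold change -1.04, SE 0.26, edgeR adjusted p = 0.00431). The groups did not overlap, and the call was lost without sham replicates 2 and 3 together (edgeR adjusted p = 0.0649, and 0.000531 to 0.0649 over its 23 alternatives, log2 fold change -0.91 without both sham libraries). Csf1r ends over Hmgxb3, which had 14 counts in the 9 libraries. Among vessel markers Egfl7 alone was tested and was not called (log2 fold change -0.78, edgeR adjusted p = 0.239), with Cldn5, Tie1, Prox1 and Rgs5 at 0. Of the markers of other cells (mesothelium, fat, nerve, striated muscle, blood, ovary and oviduct) Star alone was tested and was not called (log2 fold change 0.28, edgeR adjusted p = 0.293). With library sizes of all records Star was called higher.

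Genes of the early response and of stress gave 2 lower calls among 7 own features (median log2 fold change -0.35) and 1 higher and 1 lower among 3 opposite features (median -0.39), against 20.04% called of all features tested. In the refit without sham replicates 2 and 3, no own feature was called, and on the opposite features 0 higher and 1 lower. Ddit3, a transcription factor of the unfolded protein response, measured 51.9, 88.8 and 71.5 CPM in sham replicates 1 to 3 and 18.3, 6.15 and 15.3 CPM in CRC replicates 1 to 3 (log2 fold change -2.38, SE 0.57, edgeR adjusted p = 0.0032). The name Ddit3 matches several genes of the annotation, so this feature was not placed and what lies opposite it is not known here. Its CRC libraries held few counts and lay below every sham library, and the injury libraries too were below every sham library, at 17.3, 35.2 and 31.6 CPM. Gm45774, opposite the start of Mt2, a metallothionein gene, rose and measured 58.4, 18.5 and 25.0 CPM in sham replicates 1 to 3 and 107, 144 and 165 CPM in CRC replicates 1 to 3 (log2 fold change 1.99, SE 0.42, edgeR adjusted p = 0.000926). The call of Ddit3 was lost without sham replicates 2 and 3 together (edgeR adjusted p = 0.104, and 0.000985 to 0.104 over its 22 alternatives, log2 fold change -1.99 without both sham libraries), and that of Gm45774 without sham replicates 2 and 3 together (edgeR adjusted p = 0.0932, and 7.38e-05 to 0.0932 over its 22 alternatives, log2 fold change 1.19 without both sham libraries). Gm11175, opposite the AP-1 gene Jund, had a log2 fold change of -0.56 (edgeR adjusted p = 0.013) with overlapping groups, and the call was lost without sham replicate 1 or CRC replicate 2 or 3 (edgeR adjusted p = 0.0626, 0.0694 and 0.102, and 1.04e-06 to 0.254 over its 23 alternatives), and with library sizes of all records (log2 fold change -0.27). Fosl2, another AP-1 gene, had one of -1.13 (edgeR adjusted p = 0.0236), also with overlap, and the call was lost without sham replicate 2 or 3, CRC replicate 1, 2 or 3 or sham replicates 2 and 3 together (edgeR adjusted p = 0.0878, 0.0808, 0.0563, 0.126, 0.0598 and 0.877, and 0.00108 to 0.877 over its 23 alternatives, log2 fold change -0.18 without both sham libraries), and with DESeq2's Wald test, no filter beyond 1 count and library sizes of all records (log2 fold change -0.82).

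The hedgehog pathway, in which epithelial Ihh signals through Ptch1 and the Gli factors to the stroma, held few counts. Ihh had 0, 0 and 0 counts in sham and 4, 0 and 2 in CRC, Ptch1 had 1 count in the 6 libraries, and Gli1 had 6, 15 and 1 in sham and 7, 2 and 2 in CRC. Of its 16 genes Nr2f2 alone was tested on its own feature, and the 2 opposite features tested, opposite Gas1 and Nr2f2, were not called (median log2 fold change -0.17, and 0.13 with library sizes of all records, where 1 was called higher). A difference in Ihh, Ptch1 and Gli1 was not detectable at these counts, and depth and the way of counting were not tested apart. In the Wnt list 1 of 2 own features was higher and 1 of 3 opposite features lower (medians 0.52 and -0.30), against 20.04% called of all features tested, and in the refit without sham replicates 2 and 3 neither kind had a call. With library sizes of all records, 1 opposite feature of the Wnt list was called higher and 0 lower. With TMM factors from features with no exon opposite, 0 own features were higher and 2 opposite features lower. Sfrp2, a secreted Wnt modulator, measured 51.9, 51.8 and 60.8 CPM in sham replicates 1 to 3 and 179.7, 86.0 and 97.6 CPM in CRC replicates 1 to 3 (log2 fold change 1.14, SE 0.38, edgeR adjusted p = 0.0333). The lowest CRC library stood above the highest sham library, but the call was lost without sham replicate 1, 2 or 3, CRC replicate 1 or sham replicates 2 and 3 together (edgeR adjusted p = 0.0607, 0.0507, 0.0617, 0.278 and 0.113, and 0.00764 to 0.278 over its 23 alternatives, log2 fold change 1.16 without both sham libraries), and with TMM factors from features with no exon opposite, DESeq2's Wald test, no filter beyond 1 count and counts thinned to the smallest total. It ends over Gm26771. Ulk4, which ends over Ctnnb1, the beta-catenin gene, had a log2 fold change of -0.59 (edgeR adjusted p = 0.0402), a call that was lost without sham replicate 2 or 3, CRC replicate 1, 2 or 3 or sham replicates 2 and 3 together (edgeR adjusted p = 0.102, 0.0985, 0.109, 0.121, 0.114 and 0.562, and 0.00275 to 0.562 over its 23 alternatives, log2 fold change -0.25 without both sham libraries), and with upper quartile scaling, DESeq2's Wald test, no filter beyond 1 count, a filter of at least 10 counts in every library, a replicate block, counts thinned to the smallest total and library sizes of all records (log2 fold change -0.29).

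Genes that the study measured or names were for the most part too low to test. Of 19 genes 4 were tested on their own features, with Sfrp2 higher, Col1a1 lower and Pgr and Ccnd1 not called (median log2 fold change -0.02, and 0.28 with library sizes of all records), against 20.04% called of all features tested. In the refit without sham replicates 2 and 3, none of these own features was called. Of 3 opposite features LTO1 was lower, while Apol7d, opposite the start of Fn1, and Hand2os1, opposite Hand2, were not called (log2 fold changes -0.68 and -0.69, edgeR adjusted p = 0.268 and 0.238). Without sham replicate 1 Apol7d was called lower (log2 fold change -1.08, edgeR adjusted p = 0.0437, and 0.0437 to 0.742 over its 23 alternatives), and without sham replicates 2 and 3 its log2 fold change was 0.52 and that of Hand2os1 0.11. Counts in sham and CRC were 8, 5 and 3 and 6, 1 and 8 for Klf9, 11, 9 and 2 and 2, 5 and 3 for Vim, and 0, 0 and 0 and 5, 9 and 2 for Thbs1. Tgfb1 had 0, 0 and 5 and 5, 0 and 6, Muc1 4, 1 and 1 and 6, 5 and 2, Itgb3 2, 0 and 0 and 1, 2 and 6, and Hand2 4, 6 and 2 and 3, 2 and 1. Thbs1, a matrix glycoprotein gene, was the one of these with every CRC library above every sham library. Of the 51506 features not tested, 623 had this order and 220 had every CRC library below every sham library. Fn1, Lif and Osr2 had no more than 4 counts in the 6 libraries.

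**Figure D2:**
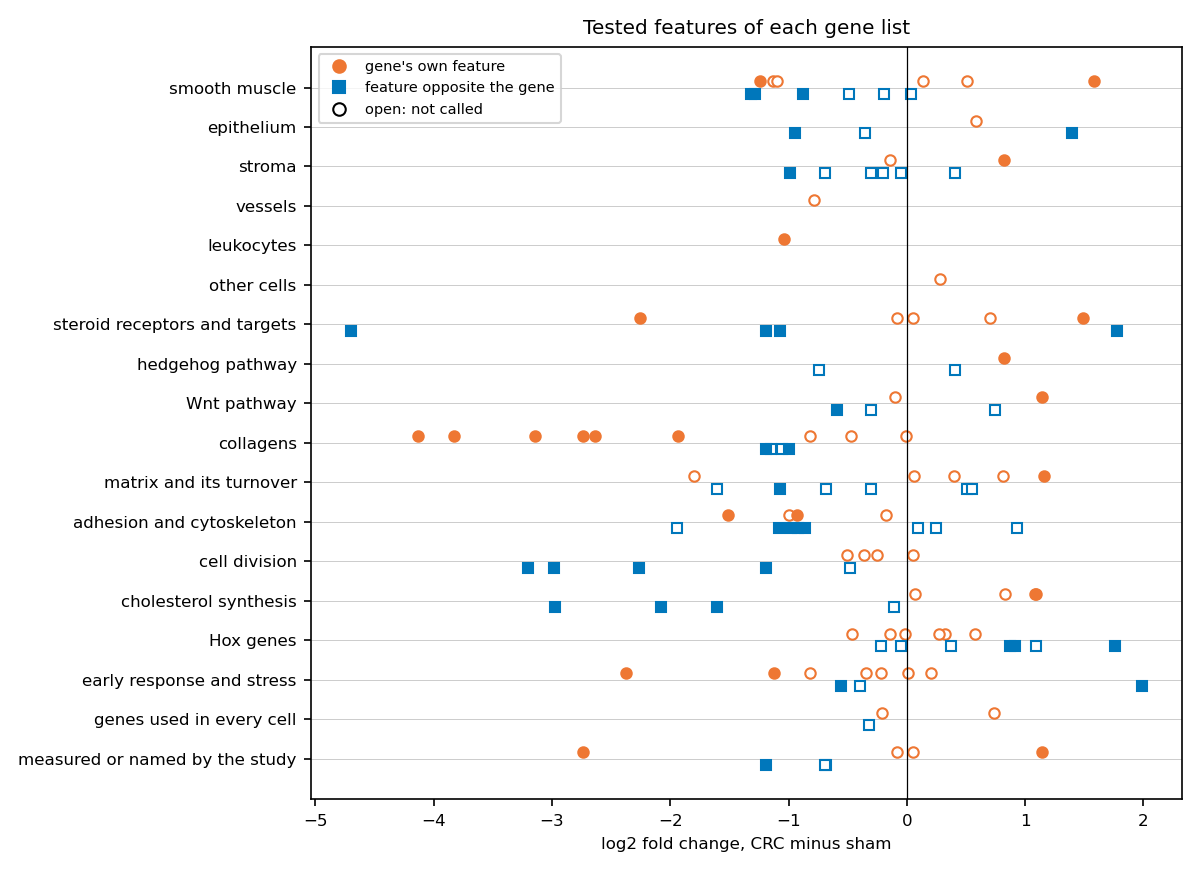
Log2 fold change between CRC and sham (x axis) of every reported feature tested in each gene list (y axis), on the gene's own feature (circles) and on the features opposite it (squares), with filled symbols for called features. Own features of the collagens reach -4.13, and the filled squares of cell division and of cholesterol synthesis lie below 0.

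Beyond the lists, the largest changes fell on further features, several of them non-coding. Gm14377 on chromosome 7 measured 607, 466 and 415 CPM in sham replicates 1 to 3 and 60.9, 46.1 and 76.3 CPM in CRC replicates 1 to 3 (log2 fold change -3.01, SE 0.24, edgeR adjusted p = 2.61e-10). Gm43557 and Gm6433, neighbours on chromosome 5, had log2 fold changes of -2.61 and -2.32, and Gm48346 on chromosome 9 had one of -2.31. Gm43557 measured 782, 788 and 829.6 CPM in sham replicates 1 to 3 and 104, 206 and 82.4 CPM in CRC replicates 1 to 3. As the rule for naming required, all CRC libraries of these features lay below all sham libraries. The injury log2 fold change against sham lay between -0.51 and 0.12. Grin2b, which encodes a subunit of the NMDA glutamate receptor, measured 963, 1469 and 1323 CPM in sham replicates 1 to 3 and 231, 273 and 223 CPM in CRC replicates 1 to 3 (log2 fold change -2.36, SE 0.20, edgeR adjusted p = 4.25e-10). Gm14329, Gm22892 and Gm26653 lie opposite it, with 0, 0 and 3 counts in the 9 libraries. Gm26885, opposite the start of the kinase gene Pim1, measured 217, 644 and 257 CPM in sham replicates 1 to 3 and 64.0, 58.4 and 113 CPM in CRC replicates 1 to 3 (log2 fold change -2.24, SE 0.36, edgeR adjusted p = 3.79e-05). It overlaps Pim1 by 488 bases and the non-coding AC163629.2 by 2302. Sham replicate 2 was far above the other sham libraries in Gm26885 and in Gm6433, and without sham replicates 2 and 3 the log2 fold change of Gm26885 was -1.52.

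The largest increase among the features that met the rule was that of Gm37509 (chromosome 1, 15853331 to 15856499), opposite the end of Sbspon, a gene of a matrix protein with a thrombospondin domain. It measured 117, 115 and 111 CPM in sham replicates 1 to 3 and 576, 829.7 and 686 CPM in CRC replicates 1 to 3 (log2 fold change 2.61, SE 0.25, edgeR adjusted p = 6.28e-09). The sham libraries had an SD of 3.01 CPM (n = 3 libraries) and every CRC library was far above them, while Sbspon on its own feature was not called (log2 fold change 0.43, edgeR adjusted p = 0.431). Tnfsf18, the gene of the GITR ligand, a costimulatory protein of the TNF family, measured 61.6, 51.8 and 82.2 CPM in sham replicates 1 to 3 and 408, 323 and 381 CPM in CRC replicates 1 to 3 (log2 fold change 2.50, SE 0.29, edgeR adjusted p = 2.2e-07). It has no exon opposite, and the injury libraries, at 31.2, 38.7 and 21.1 CPM, lay below the sham range. Sorbs2, an adaptor of actin filaments, measured 55.1, 92.5 and 93.0 CPM in sham replicates 1 to 3 and 411, 406 and 464 CPM in CRC replicates 1 to 3 (log2 fold change 2.41, SE 0.29, edgeR adjusted p = 2.8e-07). Sorbs2 runs opposite Sorbs2os. In both Tnfsf18 and Sorbs2 every CRC library stood above every sham library by several times.

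Other increases had log2 fold changes of 2.30 for Lef1os1, 1.89 for Ldah, a lipid droplet hydrolase gene, 1.86 for Gm42944 and 1.82 for Cyren, a regulator of DNA end joining that lies opposite Tmem140. Gm50103 and Gm15462, the latter opposite Lrrc31, had 1.65 and 1.63. No overlap between the groups was a condition of the rule, and edgeR adjusted p ran from 6.59e-08 to 0.000145. Zmym1, a zinc finger gene opposite Gm12940, was called higher in the injury libraries too. It measured 211, 170.3 and 139 CPM in sham replicates 1 to 3 and 560.4, 612 and 500.2 CPM in CRC replicates 1 to 3 (log2 fold change 1.68, SE 0.21, edgeR adjusted p = 4.37e-07) and 468, 566 and 579 CPM in injury replicates 1 to 3 (log2 fold change of injury against sham 1.63, edgeR adjusted p = 1.75e-05). For the other 11 increases the log2 fold change of injury against sham lay between -1.10 and 0.60, and whether CRC and injury differ from each other in them was not tested.

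**Figure D3:**
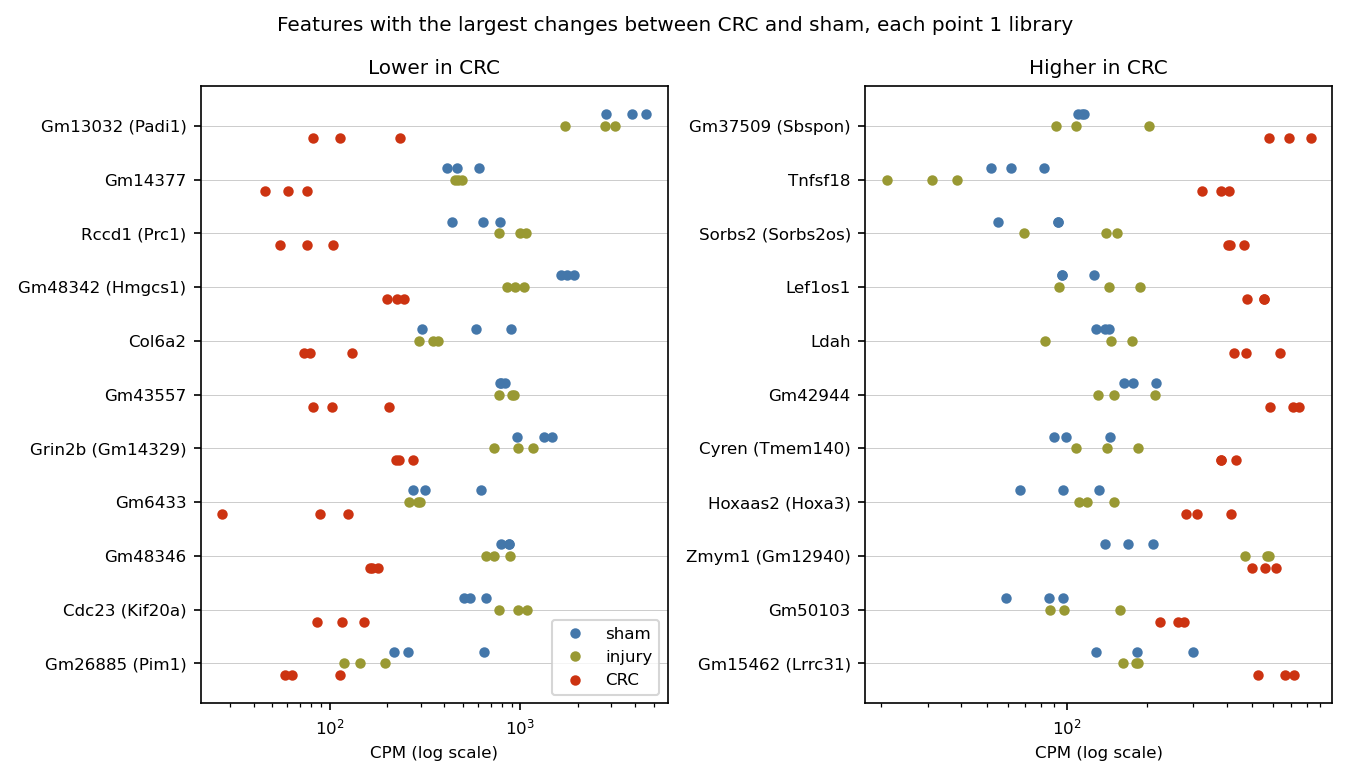
CPM on a log scale (x axis) of the reported features with the largest decreases (left) and increases (right) between CRC and sham, each point 1 library and colours the 3 groups, with a gene opposite in brackets. Features with overlap between CRC and sham were not eligible, and Zmym1 is the increase in which the injury libraries lie with CRC.

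Some features were tested together with the feature opposite. Among 550 such pairs 3 had both members called higher, 8 both lower and 12 one higher and the other lower, while 72 and 126 had a single member called higher or lower. Of all features tested 8.03% were called higher and 12.01% lower, and whether pairs depart from these shares was not tested. Pairs chosen after their values were seen were Pln, the phospholamban gene of muscle, with a log2 fold change of 1.09 against -1.16 for Gm47644, which lies inside it on the other strand, and Coro1c, an actin-binding coronin gene, with 1.77 against -1.81 for Gm17122 (edgeR adjusted p = 0.000193, 8.52e-05, 0.00507 and 1.56e-07). Tsix, the antisense gene across the X-inactivation RNA Xist, measured 16853, 22645 and 19227 CPM in sham replicates 1 to 3 and 14854, 15539.6 and 13981 CPM in CRC replicates 1 to 3 (log2 fold change -0.40, SE 0.12, edgeR adjusted p = 0.0134). Its sham and CRC libraries did not overlap but lay close, and the call was lost without sham replicate 2, CRC replicate 3 or sham replicates 2 and 3 together (edgeR adjusted p = 0.0577, 0.095 and 0.286, and 0.000118 to 0.513 over its 23 alternatives, log2 fold change -0.24 without both sham libraries), and with no filter beyond 1 count and library sizes of all records (log2 fold change -0.11). The feature Xist was not called (log2 fold change 0.42, edgeR adjusted p = 0.684, and 1.21 on the log2 scale without sham replicates 2 and 3).

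Some called features were empty in a whole group, and were chosen after their values were seen. Their calls restate that choice and add no support of their own. Blk, a kinase gene of B cells, had 27, 41 and 42 counts in sham and 0 in all CRC libraries, at least 14.2-fold lower taking 3 counts per library as the limit of detection. Another B cell marker, Ms4a1, was at 0 in all 6 libraries. Trmt61a, a gene of transfer RNA methylation, and A830036E02Rik, opposite the keratin gene Krt12, were also at 0 in CRC and at least 4.30-fold and 2.96-fold lower. Their counts in sham were 5, 16 and 12 and 7, 11 and 5. The non-coding feature 4930435N07Rik had 0 counts in all sham libraries, 6, 6 and 3 in injury and 40, 30 and 37 in CRC, at least 10.4-fold higher. These limits use the mean of the group with counts, so single libraries can lie nearer to the limit of detection, and they cover counting error only.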

How the data were processed

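RNA of mouse uterine horns from sham, injury and CRC groups was sequenced after removal of ribosomal RNA, with 3 libraries a group as labelled. Per the submitters' processing notes reads were handled with HISAT2 2.1.0 and StringTie 2.1.1; the names of the deposited files give HTSeq as the counting program, and its version, strand setting and options are not given in the sources used here. The authors deposited raw counts per feature, not normalized. Reads outside features (no feature, ambiguous, low quality, unaligned or not unique) were left out of tests and, except in 1 alternative, of library sizes; features held 0.776% to 0.898% of the records over the 9 libraries.

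Positions, exons and opposite-strand overlaps came from GENCODE M21 on GRCm38, where 53456 of 55228 features matched a gene by name, with 98.4% of the counts. The study names version 23 of the annotation, not used here. A feature is opposite a gene where at least 1 base of their exons overlaps on different strands.

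The analysis used edgeR 4.0.16 and limma 3.58.1 under R 4.3.3: filterByExpr, TMM, and a robust quasi-likelihood fit of all 9 libraries with group as the only term, Benjamini-Hochberg adjusted over 3722 features. DESeq2 1.42.0 served as an alternative. Tables and figures used Python 3.11.15, pandas 2.3.3 and matplotlib 3.10.9. The scripts were tested on simulated data. Counts of libraries within a group differed by more than sampling noise (chi-square over its degrees of freedom 2.20 to 11.9).

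Named features were the 12 largest increases and the 12 largest decreases among those called, without overlap between the 3 CRC and 3 sham libraries and with a mean of at least 50 counts (101 higher and 241 lower were eligible), members of the gene lists called on their own or an opposite feature, genes the study measured or names, Xist, Tsix and the feature with the most counts. Others are said to be chosen after their values were seen, or stand in the text as partners of these. Some features meeting the rule are not reported here. Members and lists were chosen with earlier results of these data known. The alternatives were 14 planned kinds of scaling, test, filter, threshold, replicate block and left-out library, and 1 added after the data were seen, without sham replicates 2 and 3.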

Additional observations from a re-analysis of the deposited data

Results flagged for a closer look

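Below the count filter 40 features had 0 counts in all sham libraries and at least 3 in each CRC library, and 10 had the reverse. They are listed because they had counts in CRC outside the features tested; their excess over sham follows from how they were selected. Sham libraries also had counts on fewer features (9338, 7805 and 9186) than CRC libraries (10151, 9766 and 10023), and the part of this in the difference between 40 and 10 was not tested. Records in no feature averaged 91.4% in the CRC libraries and ranged from 91.3% to 91.6%, above the sham range of 87.3% to 90.7%. These records entered no test and served only as part of the library sizes in 1 alternative.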

How the results depend on the processing

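Of 68 named features called between CRC and sham, 36 were called in the same direction in every alternative that tested them and 32 lost the call in at least 1; none changed sign while called. Apol7d, not called with all libraries, was called without sham replicate 1 (log2 fold change -1.08). At an adjusted p under 0.01 the features called numbered 437, with 139 higher, and at an adjusted p under 0.05 with at least a 2-fold change 292 were lower. With library sizes of all records 643 were higher and 281 lower, and with TMM factors from features with no exon opposite 175 were higher. DESeq2's Wald test called 199 higher. A fit without sham replicates 2 and 3, added once the data had been seen, called 555 features, 189 of them higher, and kept 409 of the 746 calls made with all libraries, with 5 of these 746 at the other sign; it leaves 1 sham library, assumed to vary like the other groups. Leaving out each library in turn gave 505 to 894 called, 182 to 365 higher and 323 to 529 lower. Without CRC replicates 1 to 3 the number higher was 187, 182 and 201. Between injury and sham the count ranged from 3 to 154, the highest without sham replicate 1. The replicate block gave 682 features called between CRC and sham and 5 between injury and sham. Deviations of same-numbered CRC and sham libraries from their group means correlated at -0.10, -0.05 and 0.02, and those of differently numbered ones at -0.07 to 0.11. With deviations from means of 3 libraries, these values cannot decide whether replicate numbers pair the samples. Apart from the stricter thresholds, the cause was not tested. At these feature counts 51506 of 55228 features fell below the filter.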
